A study of Homo sapiens with 9 samples.

Results

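The long noncoding RNAs MALAT1, NEAT1, NORAD, GAS5, SNHG1, SNHG5, SNHG8, TUG1, OIP5-AS1 and KCNQ1OT1 were followed through RNA sequencing libraries of H69 cells, an SV40-immortalized line of human cholangiocytes, the epithelial cells of the bile ducts. They were chosen by name, and the identifiers of all 10 were found among the 61541 genes of the count tables. The 9 libraries came from confluent cultures of this 1 line, labelled as wild type, in 3 groups of 3. The Ctrl group received 10 µl DMSO as vehicle, the Acetazolamide group received acetazolamide, a carbonic anhydrase inhibitor, at 10 µM for 48 h, and the Laminin511-E8 group received 0.25 µg/cm2 recombinant human laminin 511-E8, an integrin-binding fragment of a basement membrane laminin, for 48 h. DMSO is named for the Ctrl group only. Libraries were made from the cultures with the highest RNA integrity scores of each group and were enriched for polyadenylated RNA, so a level here is a level of transcripts that poly(A) capture retains.

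Long noncoding RNAs are transcripts over which no long protein is translated, and they act as RNA. MALAT1 accumulates in nuclear speckles, domains rich in splicing factors, and NEAT1 is the scaffold on which paraspeckles are built. NORAD is a cytoplasmic RNA that binds Pumilio proteins, which repress mRNAs. GAS5, SNHG1, SNHG5 and SNHG8 are host genes whose introns carry small nucleolar RNAs (snoRNAs), guides for the modification of ribosomal RNA, while their spliced exons are often turned over by nonsense-mediated decay. TUG1 is a widely expressed RNA that has been linked to Polycomb repression, OIP5-AS1 is a cytoplasmic RNA that binds the RNA-stabilizing protein HuR (ELAVL1), and KCNQ1OT1 is an imprinted nuclear RNA made from the paternal allele antisense to KCNQ1.

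The word abundant held for most of these genes and not for all. CPM, the counts of a gene scaled to a library of 1000000 counts, were divided by the kilobases of annotated exon (RPKM) and ranked among 13381 genes that had a known length and reached 10 counts in all 9 libraries. MALAT1 stood at percentile 99.5, NORAD at 97.9, NEAT1 at 96.9, TUG1 at 93.6 and GAS5 at 91.9. SNHG1, SNHG8 and OIP5-AS1 lay between percentiles 82.7 and 86.3. SNHG5 was at percentile 44.2, below the middle of the genes ranked, and KCNQ1OT1 at 3.15, which spreads its counts over an annotated exon of 91667 bases. The placing depended on the scale. In CPM without division by length, among 13496 genes, KCNQ1OT1 stood at percentile 52.3, SNHG8 at 45.2 and SNHG5 at 35.3. The others then lay between percentiles 80.5 and 99.9. All 10 had at least 10 counts in every library and were tested. The smallest count was 116, for SNHG5 in Ctrl library 3.

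Some sequences of these RNAs are shown before their levels, because they bear on how such RNAs are captured and what binds them. The share of expressed genes with such a feature is given beside each. They were read from GENCODE release 29 transcripts on GRCh38. MALAT1 (chr11:65497688-65506516, plus strand, a single exon in its longest transcript) does not end in a conventional poly(A) tail. Its mature 3′ end lies after a genome-encoded run of adenines, where RNase P releases a tRNA-like small RNA. That run, in capitals, had 13 adenines at transcript positions 8337 to 8349 and lay 359 bases before the annotated end. Runs of at least 13 adenines were found in 14.38% of 13376 expressed genes.
MALAT1: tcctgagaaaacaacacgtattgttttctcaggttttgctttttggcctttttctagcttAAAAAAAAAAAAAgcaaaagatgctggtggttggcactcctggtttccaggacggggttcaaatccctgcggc

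An oligo(dT) bead can also bind runs of adenines inside a transcript. The longest such run, in capitals below, had 22 adenines in NEAT1 (chr11:65422774-65445540, plus strand), 18 in TUG1 (chr22:30969245-30979395, plus strand), and 29 in both OIP5-AS1 (chr15:41283990-41309737, plus strand) and KCNQ1OT1 (chr11:2608328-2699994, minus strand). Runs of at least 18 were found in 5.78% of 13376 expressed genes and runs of at least 29 in 0.553%, against a median longest run of 7. That of NEAT1 lay at positions 18046 to 18067 of its longest transcript of 22743 bases, and which transcripts gave its counts is not known. The part of these runs in the capture was not tested.
NEAT1: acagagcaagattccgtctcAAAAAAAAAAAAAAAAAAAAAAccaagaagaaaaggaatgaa
TUG1: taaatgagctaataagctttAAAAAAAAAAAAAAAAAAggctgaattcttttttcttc
OIP5-AS1: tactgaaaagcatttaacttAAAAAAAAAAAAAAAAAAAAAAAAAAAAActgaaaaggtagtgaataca
KCNQ1OT1: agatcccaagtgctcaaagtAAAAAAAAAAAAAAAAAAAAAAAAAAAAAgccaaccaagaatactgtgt

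NORAD (chr20:36045622-36050960, minus strand, 1 exon of 5339 bases) carried 15 copies of the Pumilio element TGTANATA on its sense strand, of which 10 read TGTATATA, 4 TGTAAATA and 1 TGTACATA. That is 2.81 per kilobase. Of 13376 expressed genes, 2 others had as many in their longest transcript, 2 had as high a density, and 31.96% had at least 1. The first of these elements, the most distal, and the places where 2 copies start 9 bases apart are shown with the elements in capitals. By contrast, KCNQ1OT1 had 9 over its great length, NEAT1 6, TUG1 2, SNHG1 and OIP5-AS1 1 each, and MALAT1, GAS5, SNHG5 and SNHG8 had 0.
NORAD 761 to 768: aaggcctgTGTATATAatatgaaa
NORAD 1442 to 1458: tatctgTGTATATAgTGTACATAaaggac
NORAD 2639 to 2655: ctatacTGTATATAtTGTATATAtaacgg
NORAD 3275 to 3291: gtgctgTGTATATAgTGTATATAagcgga
NORAD 4599 to 4606: agcctattTGTAAATAcctttgtt

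The snoRNA hosts had annotated transcripts that begin with C followed by further pyrimidines, in capitals below, the letters of the 5′ terminal oligopyrimidine starts that ribosomal protein genes also have. A start with C and a run of at least 5 pyrimidines was found in 6 of 29 transcripts of GAS5, 1 of 25 of SNHG1, 3 of 23 of SNHG5 and 1 of 5 of SNHG8, and in 0 transcripts of the other 6 genes. Among expressed genes 16.41% had at least 1 such transcript. For each host, the start with the longest run is shown. Which start was used in these cells cannot be read from counts per gene.
GAS5: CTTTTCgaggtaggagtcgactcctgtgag
SNHG1: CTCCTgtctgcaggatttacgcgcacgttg
SNHG5: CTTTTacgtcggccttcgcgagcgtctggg
SNHG8: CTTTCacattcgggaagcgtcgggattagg

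The depth of the libraries ranged from 12529867 to 39518899 counts, so that 3 counts, the limit that a count of 0 allows, correspond to 0.0759 to 0.239 CPM for counting error alone. Mitochondrial transcripts took 9.43% to 16.2% of the counts. Of the cholangiocyte markers, EPCAM, KRT19, KRT7, CDH1 and SOX9 had at least 10 counts in every library, CFTR had 3 counts in all, and the summed level of the list was 2183 to 2642 CPM in Ctrl, 2100 to 3251 in Acetazolamide and 1872 to 2479 in Laminin511-E8. With laminin 511-E8 the log2 fold changes of the 5 tested markers were all negative (median -0.32 against Ctrl and -0.25 against Acetazolamide). Of these markers, 2 lay below all Ctrl libraries without overlap, as did 3.96% of all genes tested. KRT19, a keratin of the bile duct epithelium, had log2 fold changes of -0.45 and -0.60 in these comparisons and passed both with the GC trend removed (adjusted p = 0.0124 and 0.0105 in edgeR), though neither without that step. The part of this marker difference in the values of the long noncoding RNAs was not tested. None of 6 hepatocyte markers reached that count (TF, HNF4A, ASGR1 and ALB had means of 0.272, 0.186, 0.104 and 0.0032 CPM, APOA1 and TTR were at 0, and the summed level was at most 0.858 CPM). Of 10 leukocyte, endothelial and stromal markers, CD14, COL1A1, PDGFRB and ACTA2 did, CD3E and CDH5 were at 0, and the summed levels were 57.9 to 68.1, 50.4 to 90.9 and 51.6 to 79.7 CPM. Genes of low GC content stood apart in 3 libraries: the median log2 deviation of genes in the lowest GC decile was -0.57 in Acetazolamide library 3, -0.37 in Laminin511-E8 library 2 and 0.35 in Acetazolamide library 2. This touches the present genes directly, since their GC contents of 39.6% (MALAT1) to 45.5% (SNHG8) all lie below the median of 48.4% for the genes tested.

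The 10 RNAs together took between 0.488% and 0.631% of all counts and 37.6% to 44.2% of the counts of long noncoding RNA genes. Their share of all counts was 0.527% ± 0.0260 (SD, n = 3) in Ctrl, 0.565% ± 0.0667 in Acetazolamide and 0.582% ± 0.0471 in Laminin511-E8. The two-sided exact permutation p was 0.4 for Acetazolamide against Ctrl and 0.2 for Laminin511-E8 against Ctrl, and since the smallest p of this design is 0.1, no difference in the share could have passed 0.05. MALAT1 alone supplied 44.0% of these counts and NEAT1 29.8%.

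Per exon length, MALAT1 had the highest level in all 9 libraries, at 279.5 ± 35.7 RPKM (SD, n = 9). NORAD followed with 93.4 ± 13.9 RPKM, NEAT1 with 72.8 ± 6.20, TUG1 with 43.4 ± 3.79 and GAS5 with 36.0 ± 4.53. SNHG1 had 23.2 ± 1.95 RPKM, SNHG8 21.8 ± 2.82, OIP5-AS1 18.8 ± 3.89, SNHG5 4.28 ± 1.70 and KCNQ1OT1 0.296 ± 0.0397. Neighbours in this order were compared within libraries by a two-sided exact sign-flip permutation test, adjusted over the 9 pairs. The order itself was set by the mean levels in these same 9 libraries. The p-values therefore describe how steady each difference was, and do not test an order named beforehand. SNHG8 and OIP5-AS1 did not differ beyond their spread, with a log2 difference of 0.23 ± 0.35 (SD), higher in 7 of 9 libraries and an adjusted p of 0.0820, which was 0.0176 without Ctrl library 3. SNHG1 over SNHG8 was at the edge, at 0.10 ± 0.11, 7 of 9 libraries and an adjusted p of 0.0396, which became 0.101 with the length of the longest transcript and was lost on leaving out any library but Ctrl 1 and Acetazolamide 2 (7 of 9). NORAD lay above NEAT1 in 8 of 9 libraries (0.35 ± 0.24, adjusted p = 0.01004). Every other neighbour differed in the same direction in 9 of 9 libraries (adjusted p = 0.00586 in this permutation test). The place of NEAT1 rested on the division by its annotated exon length of 22767 bases. In CPM, NEAT1 lay above NORAD in 9 of 9 libraries (log2 difference 1.74 ± 0.24). Which of its 8 annotated transcripts gave the counts cannot be read from counts per gene. The place of GAS5 depended on the length used, since the longest transcript has 1698 bases and the union of its exons 3631. With the longest transcript TUG1 lay below GAS5 by a log2 difference of -0.38.

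None of the 10 RNAs passed an adjusted p of 0.05 in any of the 3 comparisons in edgeR's quasi-likelihood test with Benjamini-Hochberg adjustment, and neither did any of the 15997 genes tested (0% called in each comparison). At an unadjusted p under 0.05, 0 of the 10 passed in each comparison, against 1.82% of all genes for Acetazolamide against Ctrl, 2.78% for Laminin511-E8 against Ctrl and 2.15% for Laminin511-E8 against Acetazolamide. A second fit removed each library's trend with GC content over 15737 genes. It again called 0 of the 10 RNAs, beside 0%, 0.324% and 0.159% of all genes, and 0, 51 and 25 genes in number. The 2 treatments share the same control libraries. Missing the threshold does not show that levels were alike, so the intervals of the differences from Ctrl are given with each RNA below. In bulk RNA, fewer cells that make a transcript and less of it per cell cannot be told apart.

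**Figure D1:**
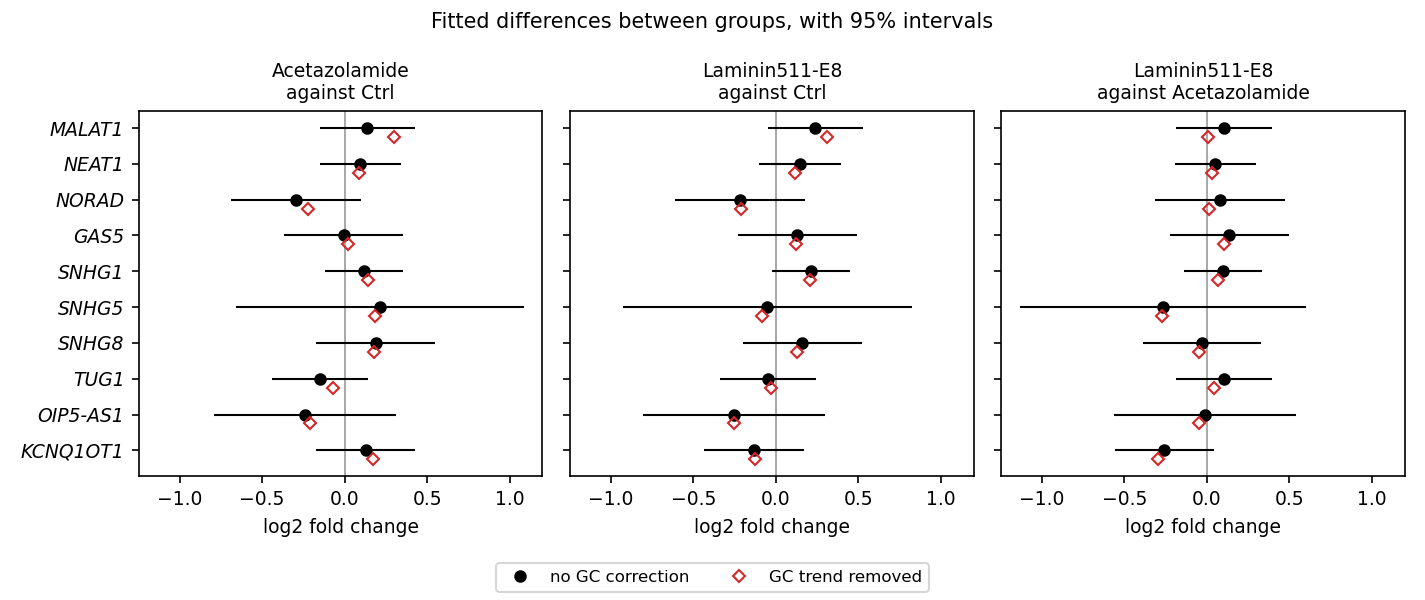
Log2 fold change of each RNA in the 3 comparisons from the edgeR fit (black points, with 95% intervals as lines) and from the fit with the GC trend removed (red diamonds). Every black interval crosses 0; NORAD sits at -0.30 and -0.22 in the treatments against Ctrl, and the widest intervals belong to SNHG5.

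The nuclear scaffolds MALAT1 and NEAT1 had their lowest group means in Ctrl. MALAT1 measured 1984, 2150 and 2501 CPM in the Ctrl libraries, 2860, 2525 and 2216 CPM in the Acetazolamide libraries and 2951, 2508 and 2516 CPM in the Laminin511-E8 libraries. The 3 Laminin511-E8 values lay above the 3 Ctrl values in CPM, but on the scaled log2 values of the fit, where the Ctrl libraries reached 11.26 and the lowest Laminin511-E8 library 11.24, the groups overlapped. The log2 fold change was 0.24 (SE 0.13, 95% interval -0.05 to 0.53, unadjusted p = 0.0920, adjusted p = 1.00 in edgeR) with laminin 511-E8 and 0.14 (SE 0.13, interval -0.15 to 0.43) with acetazolamide. Without Ctrl library 1, the lowest, these became 0.14 and 0.03. MALAT1 has the lowest GC content of the 10, and with the GC trend removed its differences were 0.31 and 0.30 (unadjusted p = 0.0864 and 0.0950 in edgeR).

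NEAT1 was among the steadiest of the 10, with 1575, 1496 and 1529 CPM in Ctrl, 1734, 1883 and 1510 CPM in Acetazolamide and 1824, 1644 and 1717 CPM in Laminin511-E8. In CPM all 3 Laminin511-E8 libraries lay above the Ctrl libraries, but on the scaled log2 values they overlapped (10.64 in Laminin511-E8 library 2 against 10.65 in Ctrl library 2), as the Acetazolamide libraries did on both scales. The log2 fold changes were 0.15 (interval -0.10 to 0.39) with laminin 511-E8 and 0.10 (interval -0.15 to 0.34) with acetazolamide, and they ran from 0.08 to 0.20 and from 0.01 to 0.19 on leaving out each library in turn. MALAT1 gave 1.49 ± 0.134 (SD, n = 9) times as many counts as NEAT1, with a range of 1.26 to 1.65 over the libraries.

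NORAD had the most negative difference of the 10 with acetazolamide. It measured 577.8, 508.4 and 563.8 CPM in Ctrl, 486.1, 539.2 and 372.7 CPM in Acetazolamide, and 512.7, 382.2 and 543.0 CPM in Laminin511-E8. After TMM scaling, the log2 values were 9.20, 9.09 and 9.11 in Ctrl and 8.89, 9.07 and 8.49 in Acetazolamide, so that the groups did not overlap, although the closest libraries nearly met. NORAD was the 1 member of 10 that lay lower without overlap in this comparison, where 2.10% of all genes did so and 3.21% lay higher. The log2 fold change was -0.30 (SE 0.18, interval -0.69 to 0.10, unadjusted p = 0.125, adjusted p = 0.999 in edgeR), and -0.22 (interval -0.61 to 0.18) with laminin 511-E8. The lowest values came from the 2 libraries in which low-GC genes were low in general. Without Acetazolamide library 3 the first difference was -0.14, and without Laminin511-E8 library 2 the second was -0.06.

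With the GC trend removed, the NORAD values drew together within groups. Their deviations from the mean over the 9 libraries were 0.15, 0.06 and 0.22 in Ctrl, -0.01, -0.11 and -0.11 in Acetazolamide, and -0.05, -0.21 and 0.06 in Laminin511-E8. Both treated groups then lay below all Ctrl libraries (the closest were 0.0641 in Ctrl and 0.0596 in Laminin511-E8), and such a lack of overlap was found for 6.48% and 7.58% of all genes, while 3.37% lay higher in this way with acetazolamide, none of the 10 among them. The differences were -0.22 (unadjusted p = 0.0120, adjusted p = 0.924 in edgeR) with acetazolamide and -0.21 (unadjusted p = 0.0166, adjusted p = 0.496) with laminin 511-E8. In this fit 4.59% and 7.64% of all genes had an unadjusted p under 0.05, and of the 10 RNAs 1 and 2 did. The partners of NORAD gave 0 calls of 11 tested. The 4 with the most counts were CNOT1, a scaffold of the deadenylase that Pumilio proteins recruit (log2 fold change 0.01 with acetazolamide and 0.0024 with laminin 511-E8), RBMX, an RNA-binding protein (-0.14 and 0.02), TOP1, a topoisomerase (-0.07 and 0.10), and PUM2, a Pumilio protein (-0.16 and -0.12).

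Among the snoRNA hosts, SNHG1 was the steadiest and SNHG5 the least steady. SNHG1 measured 86.0, 76.2 and 73.6 CPM in Ctrl, 89.5, 90.5 and 87.7 CPM in Acetazolamide and 92.5, 93.5 and 93.3 CPM in Laminin511-E8. The Laminin511-E8 libraries lay closest together. All 6 treated values lay above the 3 Ctrl values in CPM, but on the scaled log2 values Acetazolamide library 3 (6.41) fell below Ctrl library 1 (6.45), so that only the Laminin511-E8 libraries stood clear of Ctrl. On the scaled values SNHG1 was the 1 member of 10 that lay higher without overlap with laminin 511-E8, where 4.69% of all genes lay higher in this way and 3.96% lower. The log2 fold change was 0.22 (SE 0.11, interval -0.02 to 0.45, unadjusted p = 0.0691, adjusted p = 1.00 in edgeR) with laminin 511-E8 and 0.12 (interval -0.12 to 0.36) with acetazolamide. Without Ctrl library 3, the lowest, these were 0.14 and 0.03. With the GC trend removed the first was 0.21 (unadjusted p = 0.0131, adjusted p = 0.460). With laminin 511-E8, SNHG1 and NEAT1 then lay higher without overlap (5.94% of all genes), while NORAD and OIP5-AS1 lay lower (7.58% of all genes).

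GAS5, the host of the most snoRNAs of these genes, measured 137.5, 112.6 and 123.4 CPM in Ctrl, 133.3, 149.1 and 104.6 CPM in Acetazolamide, and 150.3, 119.9 and 145.1 CPM in Laminin511-E8. The 3 groups overlapped, and the lowest value was again that of Acetazolamide library 3. The log2 fold change was -0.01 (interval -0.37 to 0.35) with acetazolamide, with a sign that differed between scalings, and 0.13 (interval -0.23 to 0.49) with laminin 511-E8. SNHG8 measured 21.6, 17.2 and 15.4 CPM in Ctrl, 21.5, 24.2 and 19.04 CPM in Acetazolamide and 20.02, 21.0 and 21.0 CPM in Laminin511-E8. Its log2 fold changes were 0.19 (interval -0.17 to 0.55) and 0.16 (interval -0.20 to 0.52), and without Ctrl library 3, the lowest, they were 0.055 and 0.0319.

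SNHG5 rested on 1 library. Its counts were 444, 186 and 116 in Ctrl, 356, 571 and 123 in Acetazolamide and 248, 192 and 405 in Laminin511-E8, which correspond to 14.4, 10.1 and 9.26 CPM, 10.2, 23.2 and 7.46 CPM, and 14.2, 9.09 and 10.2 CPM. Acetazolamide library 2 held the highest value of the 9 and Acetazolamide library 3 the lowest, a ratio of 3.11. The log2 fold change of 0.22 with acetazolamide (SE 0.39, interval -0.66 to 1.09) turned to -0.41 without Acetazolamide library 2, and that of -0.27 for Laminin511-E8 against Acetazolamide turned to 0.36. For Laminin511-E8 against Ctrl the log2 fold change was -0.05 (SE 0.39, interval -0.93 to 0.83).

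The snoRNAs themselves, which carry no poly(A) tail, were almost unread. GAS5 spans 11 annotated snoRNAs, SNHG1 9, SNHG5 2 and SNHG8 1. Of the 11 with an entry in the count tables, 10 counts in all were assigned, and all of them to SNORD27 within SNHG1. Their levels were not measured here.

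A list of other snoRNA host genes gave the same count of 0 called, of 20 tested with each treatment. The log2 fold changes were positive for 17 of these 20 with acetazolamide, with a median of 0.17 against 0.01 for all genes tested, and for 17 of 20 with laminin 511-E8, with a median of 0.16 against -0.0037. The Ctrl libraries are common to both counts. Without a control between them, Laminin511-E8 against Acetazolamide gave 8 positive values and 12 negative, and a median of -0.02. The 4 with the most counts were SNHG29 (log2 fold change 0.14 with acetazolamide and 0.07 with laminin 511-E8), SNHG14 (-0.02 and -0.07), SNHG16 (0.04 and 0.22) and SNHG6 (-0.05 and -0.06). Those with an unadjusted p under 0.05, named after their values were seen, were SNHG3, ZFAS1 and EPB41L4A-AS1 with acetazolamide and SNHG3, SNHG17 and EPB41L4A-AS1 with laminin 511-E8. EPB41L4A-AS1 had the smallest p, with 10.1 ± 1.07 CPM (SD, n = 3) in Ctrl, 15.4 ± 0.704 CPM in Acetazolamide and 14.8 ± 1.68 CPM in Laminin511-E8 (log2 fold changes 0.55 and 0.53, adjusted p = 0.999 and 1.00 in edgeR). Of 18 factors of nonsense-mediated decay, 0 passed. Their log2 fold changes were negative for 10 with acetazolamide (median -0.025) and for 9 with laminin 511-E8 (median 0.01). The 4 with the most counts were SMG1, the kinase of the pathway (-0.15 and -0.03), the translation release factors ETF1 (0.02 and 0.12) and GSPT1 (-0.05 and 0.03), and EIF4A3, a core protein of the exon junction complex, whose 0.22 and 0.27 were the highest of the list.

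TUG1 measured 473.1, 430.0 and 452.2 CPM in Ctrl, 420.1, 481.8 and 372.8 CPM in Acetazolamide, and 472.4, 395.1 and 467.9 CPM in Laminin511-E8. Its groups overlapped, with log2 fold changes of -0.15 (interval -0.44 to 0.14) and -0.04 (interval -0.34 to 0.25). OIP5-AS1 followed the same libraries with wider swings, at 286.3, 238.1 and 261.3 CPM in Ctrl, 230.5, 304.5 and 155.7 CPM in Acetazolamide and 247.6, 167.5 and 253.4 CPM in Laminin511-E8. Its highest value, in Acetazolamide library 2, was 1.96 times its lowest, in Acetazolamide library 3. The log2 fold changes were -0.24 (interval -0.79 to 0.31) and -0.25 (interval -0.80 to 0.30), and they were -0.01 without Acetazolamide library 3 and -0.07 without Laminin511-E8 library 2. Of the partners of OIP5-AS1, TUG1 and GAS5, 0 of 6 passed, and the 4 with the most counts were NR3C1, the glucocorticoid receptor that GAS5 can bind (-0.09 and -0.13), KHSRP, a decay-promoting RNA-binding protein (0.04 and 0.04), SUZ12, a Polycomb subunit (-0.26 and -0.16), and ELAVL1, which encodes HuR (0.08 and 0.06).

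KCNQ1OT1 was the 1 RNA whose values separated the treatments from each other rather than from Ctrl. It measured 22.9, 24.9 and 32.1 CPM in Ctrl, 31.0, 28.0 and 31.6 CPM in Acetazolamide, and 23.4, 26.3 and 24.3 CPM in Laminin511-E8. The Acetazolamide libraries lay above the Laminin511-E8 libraries without overlap, and the Ctrl libraries spanned both. Against Ctrl the log2 fold change was 0.13 (interval -0.17 to 0.43) with acetazolamide and -0.13 (interval -0.43 to 0.17) with laminin 511-E8. For Laminin511-E8 against Acetazolamide the log2 fold change was -0.26 (SE 0.13, interval -0.56 to 0.04, unadjusted p = 0.0833, adjusted p = 1 in edgeR). Of the 10 RNAs, KCNQ1OT1 lay lower without overlap in this comparison, where 3.11% of all genes did, and SNHG1 lay higher, where 3.01% did. With the GC trend removed the difference was -0.30 (unadjusted p = 0.0906). None of the 10 then had an unadjusted p under 0.05, against 5.10% of all genes, and the libraries of the groups overlapped for all 10, where 6.46% of all genes lay higher and 5.39% lower without overlap.

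Overlapping genes on the other strand could share reads, because the strand setting of the counting is not given in the sources used here. KCNQ1 itself, antisense to KCNQ1OT1, had 1 count in all 9 libraries against 5781 for KCNQ1OT1. OIP5, whose exons overlap those of OIP5-AS1 over 470 bases, had 5593 counts against 52455. GAS5-AS1 had 287 against 28788 for GAS5, and the transcript antisense to MALAT1 had 2 against 534428. None of the 14 neighbouring genes tested passed, and the 4 with the most counts were SLC3A2, SYNCRIP, CHP1 and MORC2, with log2 fold changes between -0.39 and 0.18 over both treatments. CDKN1C, named after its values were seen, was the 1 neighbour with an unadjusted p under 0.05. Its log2 fold changes were -1.26 with acetazolamide and -1.52 with laminin 511-E8 (unadjusted p = 0.0268 and 0.0124 in edgeR). They rest on 108 counts in all, a mean of 0.49 CPM.

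The spread between libraries of the same group differed widely among these RNAs. The SD within groups on the log2 scale was 0.09 for SNHG1, 0.13 for NEAT1, 0.14 for KCNQ1OT1, 0.16 for MALAT1, 0.17 for TUG1, 0.19 for SNHG8, 0.22 for GAS5 and 0.25 for NORAD, against a median of 0.27 over the genes tested. It was 0.37 for OIP5-AS1 and 0.57 for SNHG5. The spread depends on level, and compared with the 500 genes nearest in level SNHG1 stood at percentile 13.2, KCNQ1OT1 at 23.6, NEAT1 at 35, SNHG8 at 40.2, MALAT1 at 49.8, TUG1 at 50, GAS5 at 62.6, NORAD at 77.6, OIP5-AS1 at 94.8 and SNHG5 at 97.6. Without the library that contributed most, the SD of SNHG5 was 0.34 and that of OIP5-AS1 0.29.

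**Figure D2:**
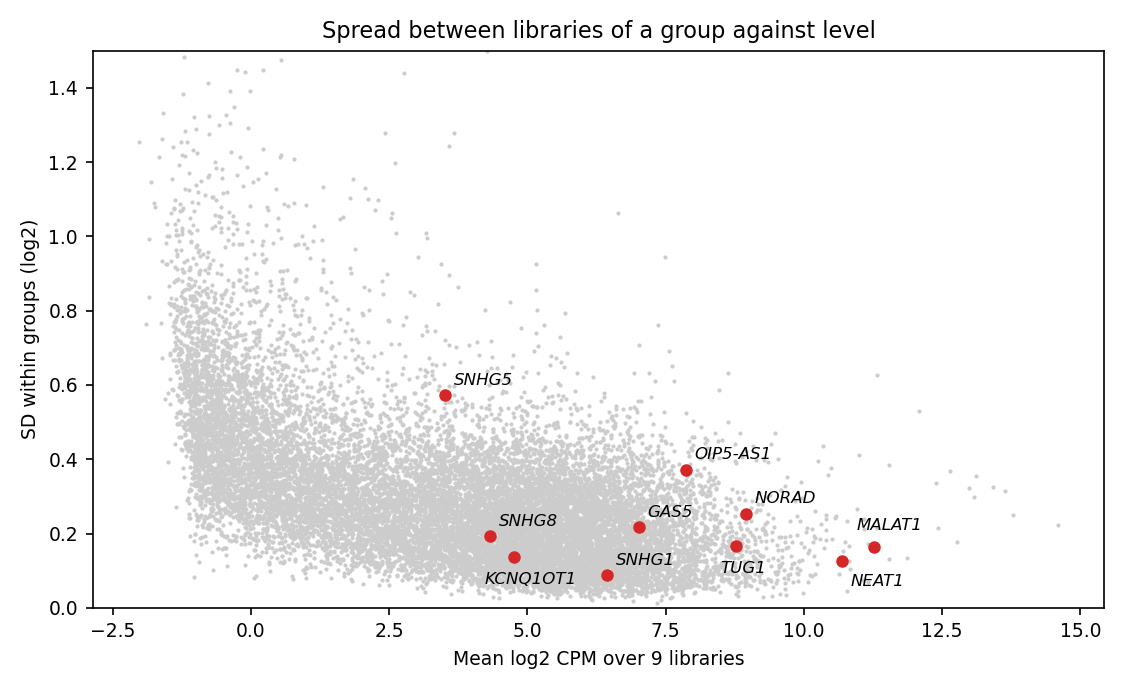
SD between libraries of a group (log2) against mean log2 CPM, for 15975 genes (grey) and the 10 RNAs (red); 22 genes with an SD above 1.5 are not drawn. SNHG1 (0.09) lies at the lower edge of the genes of its level, and OIP5-AS1 (0.37) and SNHG5 (0.57) near the upper edge.

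For several of these RNAs, much of this spread moved with the GC trend of the libraries. Over the 9 libraries, the scaled level correlated with the GC slope of a library (the median deviation of the highest GC decile less that of the lowest) at Pearson's r of -0.964 for TUG1, -0.936 for OIP5-AS1, -0.897 for GAS5, -0.868 for NORAD and -0.853 for SNHG5, and at 0.48 for KCNQ1OT1. The correlation was -0.775 for NEAT1, -0.499 for SNHG8, -0.302 for SNHG1 and -0.264 for MALAT1. These are descriptions over the same 9 libraries, which also share depth and group. With the trend removed, the SD of TUG1 went to 0.05, that of NEAT1 to 0.05, of NORAD to 0.10, of GAS5 to 0.09, of OIP5-AS1 to 0.20 and of SNHG5 to 0.48, where the median of all genes was 0.15. The SD of SNHG8 went to 0.14, and that of SNHG1 hardly changed, from 0.0879 to 0.084. For MALAT1 and KCNQ1OT1 the SD went up instead, to 0.24 each.

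**Figure D3:**
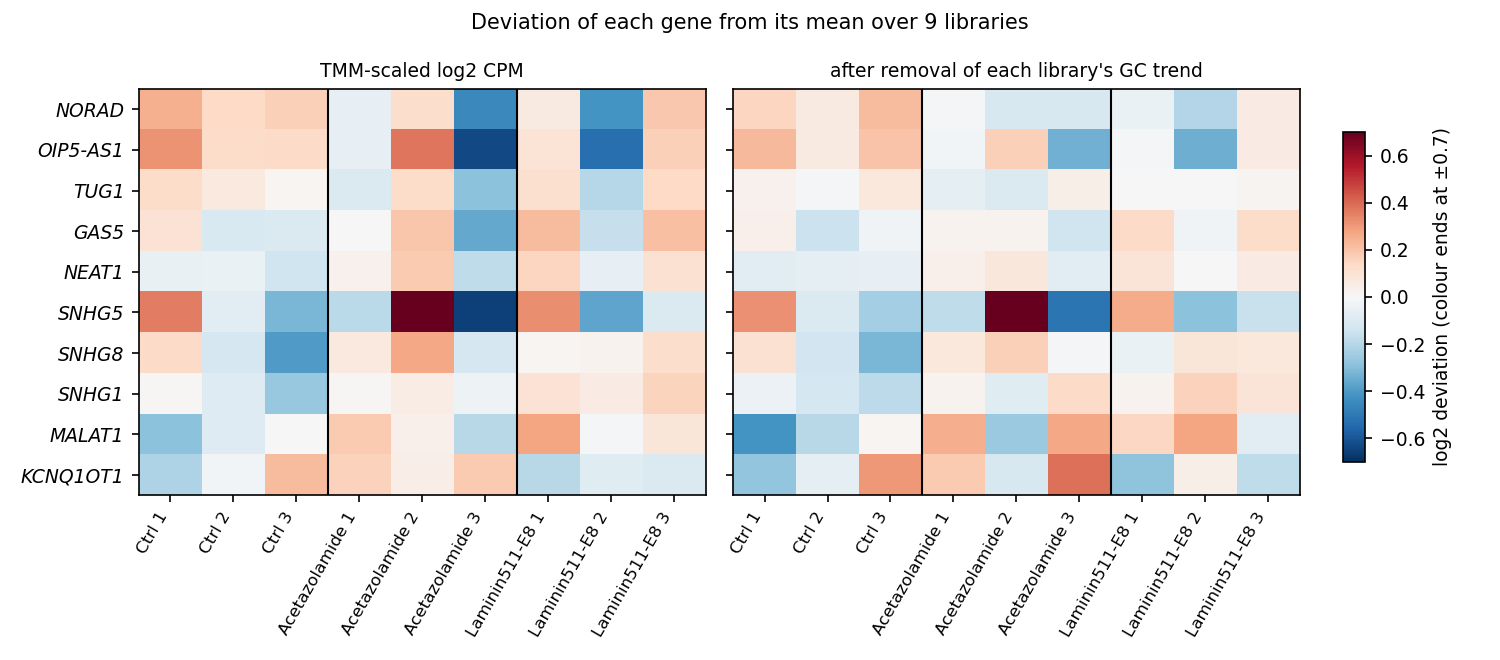
Log2 deviation of each RNA (rows) from its mean over the 9 libraries (columns, groups separated by lines), before (left) and after (right) removal of each library's GC trend; red is above and blue below the mean. On the left NORAD, OIP5-AS1, TUG1 and GAS5 are low together in Acetazolamide library 3 and Laminin511-E8 library 2, and on the right TUG1 is nearly blank (SD 0.05) while MALAT1 and KCNQ1OT1 are deeper in colour.

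The same holds for how these RNAs moved with each other. Of their 45 pairs, 13 had a Pearson's r above 0.7 over the 9 libraries, and 2 did with the GC trend removed. Negative values are not in these counts, and the share among pairs of all genes was not taken. NORAD and OIP5-AS1 kept the closest likeness, with r = 0.966 before and 0.766 after. NEAT1 and GAS5 had 0.885 and 0.731. TUG1 and OIP5-AS1 went from 0.949 to -0.07. SNHG1 and OIP5-AS1 went from 0.004 to -0.819, and MALAT1 and OIP5-AS1 from 0.151 to -0.797. The genes most like each RNA among 9126 others with at least 10 CPM were mostly of low GC content too: GMCL1, CNIH1 and PERP for OIP5-AS1 (r from 0.996 to 0.999), SPTY2D1, RPE and BLZF1 for TUG1 (0.994 to 0.996), and RNASEH1, ITGA6 and YWHAZ for NORAD (0.985 to 0.995). For NEAT1 they were PPP4R1, TCP1 and MDM4 (0.97 to 0.979), and for GAS5 PAM, SNX5 and GCNT1 (0.981). SNHG1 was nearest to FSTL1, TIMM23 and LSG1 (0.939 to 0.958), SNHG5 to CFAP298, ZRANB3 and ATG10 (0.955 to 0.969), and SNHG8 to TMLHE, GTF3C6 and DYNLL1 (0.925 to 0.97). MALAT1 and KCNQ1OT1 had the loosest likeness, to RPS3AP26, HSPBAP1 and AREG (0.823 to 0.877) and to ARMCX4, MN1 and FHDC1 (0.837 to 0.934).

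The mRNAs for proteins of the nuclear bodies that these RNAs belong to were counted in the same libraries. Protein levels were not measured. Of 27 genes of paraspeckle proteins tested, 0 passed with either treatment. The mRNAs of NONO and SFPQ, the core proteins bound along NEAT1, had 782.3 and 477.2 CPM. Their log2 fold changes were -0.0044 and -0.03 with acetazolamide and 0.01 and 0.02 with laminin 511-E8. HNRNPA1 and HNRNPK, at 1109 and 947.5 CPM, gave -0.10 and -0.0023 with acetazolamide and -0.02 and 0.09 with laminin 511-E8. Of 20 genes of nuclear speckle proteins, 0 passed. The mRNAs of SON and SRRM2, the proteins that form the core of speckles, had 812 and 1135 CPM. Their log2 fold changes lay between -0.02 and 0.05 over both treatments. The mRNAs of the splicing factors SF3B1 and SRSF3 gave -0.05 and -0.14 with acetazolamide and 0.02 each with laminin 511-E8. Of 11 genes for processing or binding of MALAT1, 0 passed, with -0.10 and 0.01 for HNRNPC, an RNA-binding protein, 0.16 and 0.10 for ELAC2, which cuts tRNA 3′ ends, -0.0039 and 0.06 for METTL16, which binds the MALAT1 triple helix, and 0.08 and 0.16 for METTL3, a methyltransferase of RNA adenines. Of 19 other long noncoding RNAs tested, 0 passed with either treatment. Those with the most counts, FGD5-AS1, UCA1, EBLN3P and THAP9-AS1, had log2 fold changes between -0.17 and 0.09. At an unadjusted p under 0.05 in edgeR, 0 of the 19 passed with acetazolamide and 4 with laminin 511-E8. Of all genes, 1.82% and 2.78% did. Named after their values were seen, the 4 were CYTOR (log2 fold change 0.35), MIAT (0.98, at a mean of 0.74 CPM), PVT1 (0.34) and LINC00511 (0.36). With laminin 511-E8, 9 of the 19 had positive and 10 negative log2 fold changes.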

How the data were processed

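RNA was sequenced from 9 cultures of H69 cells, 3 per group by the labels. The values are raw read counts per gene as deposited by the authors, whose processing notes name GRCh38 and the tools FastQC 0.11.9, HISAT2 2.2.1, HTSeq 0.11.0 and Trimmomatic 0.39. How strands, multiply matching reads and the gene annotation were handled is not given in the sources used here. Members and lists were chosen with earlier results of these data known. All 10 members are named with every value, from each other list the 4 genes with the highest mean CPM and any that pass, and for likeness the 3 genes with the highest r. OIP5-AS1, TUG1 and GAS5 partners (ELAVL1, EZH2, SUZ12, EED, NR3C1 and KHSRP) form a further list of 6, of which 0 passed.

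The test was edgeR's robust quasi-likelihood fit (version 4.0.16, R 4.3.3) on 15997 genes kept by filterByExpr in all 9 libraries, scaled by TMM. P-values were adjusted by Benjamini-Hochberg, with 0.05 as the threshold. Lack of overlap and spread were read from TMM-scaled log2 CPM with a prior count of 2. RPKM used raw counts and the union of exons in GENCODE release 29, whose transcripts also gave GC content and sequences. GC trends were removed as offsets (local regression, span 0.3). DESeq2 1.42.0, limma 3.58.1 (voom), other scalings and filters, a replicate block, and fits without each library or without mitochondrial genes were alternatives. Scripts were tested on simulated counts. Python 3.11.15, pandas 2.3.3, SciPy 1.17.1 and matplotlib 3.10.9 were used for levels and plots. Total counts were 12529867 to 39518899 per library, and intervals cover the spread between cultures of 1 line only. The level of 1 listed gene is not reported here.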

Additional observations from a re-analysis of the deposited data

How the results depend on the processing

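None of the 10 RNAs passed an adjusted p of 0.05 in any alternative run. Over all genes, edgeR called 0 in each comparison, while DESeq2 called 7 for Acetazolamide against Ctrl, 21 for Laminin511-E8 against Ctrl and 19 for Laminin511-E8 against Acetazolamide, edgeR without a filter on low counts called 3, 5 and 2, and with the GC trend removed 0, 51 and 25. The replicate numbers are not said to mark a shared day. The correlations of same-numbered libraries, taken on deviations from the group means, ran from -0.649 to 0.238, and 2 of 9 were above 0.1. With 3 libraries a group and a GC trend in the libraries, these values cannot settle whether samples were paired. A replicate block left 0 calls in each comparison, and with the GC trend removed as well it gave 5 and 3 calls for Laminin511-E8 against Ctrl and against Acetazolamide. It turned the log2 fold change of OIP5-AS1 for Laminin511-E8 against Acetazolamide to 0.0064, as did limma voom (0.0083) and no filter (0.0104). That of GAS5 for Acetazolamide against Ctrl turned to 0.0366 with upper-quartile scaling, 0.0046 with at least 10 counts in every library, 0.0197 with the GC trend removed and 0.0205 with the replicate block added to that. The causes of these changes were not tested.

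Leaving out each library in turn moved the log2 fold change through 0 for Acetazolamide against Ctrl in GAS5 (-0.1302 to 0.1402), KCNQ1OT1 (-0.0066 to 0.2284) and SNHG5 (-0.4143 to 0.511), and for Laminin511-E8 against Ctrl in SNHG5 (-0.2731 to 0.1473) and TUG1 (-0.1139 to 0.0522). For Laminin511-E8 against Acetazolamide it did so in GAS5 (-0.0105 to 0.2597), MALAT1 (-0.002 to 0.2018), NEAT1 (-0.0492 to 0.1331), NORAD (-0.0773 to 0.2292), OIP5-AS1 (-0.2429 to 0.2484), SNHG5 (-0.5624 to 0.3617), SNHG8 (-0.1284 to 0.0667) and TUG1 (-0.0012 to 0.2099). Without a change of sign it moved the values by over 1.5 times for Acetazolamide against Ctrl in MALAT1 (0.0312 to 0.2413), NEAT1 (0.0122 to 0.1947), NORAD (-0.4217 to -0.1426), SNHG1 (0.0337 to 0.1523), SNHG8 (0.055 to 0.3042), TUG1 (-0.2562 to -0.0449) and OIP5-AS1 (-0.5018 to -0.0103), and for Laminin511-E8 against Ctrl in MALAT1 (0.1317 to 0.3), NEAT1 (0.0804 to 0.2009), NORAD (-0.3336 to -0.0632), GAS5 (0.0444 to 0.2422), SNHG1 (0.1379 to 0.256), SNHG8 (0.0319 to 0.2806), OIP5-AS1 (-0.3701 to -0.0679) and KCNQ1OT1 (-0.2577 to -0.0222). MALAT1, NEAT1, NORAD, SNHG1, SNHG8 and OIP5-AS1 kept their sign in all 20 alternatives in both treatments against Ctrl. So did TUG1 with acetazolamide, and GAS5 and KCNQ1OT1 with laminin 511-E8. For Laminin511-E8 against Acetazolamide, SNHG1 and KCNQ1OT1 did. In the order of levels, CPM without division by length put NORAD below NEAT1 (-1.744), SNHG8 below OIP5-AS1 (-3.5482) and SNHG5 below KCNQ1OT1 (-1.2467), and the longest transcript put TUG1 below GAS5 (-0.3778). Without mitochondrial counts the shares of the 10 RNAs were 0.6001%, 0.6315% and 0.6573% in Ctrl, Acetazolamide and Laminin511-E8. The spread with the GC trend removed was chosen after seeing the data and gave SDs of 0.2381 for MALAT1, 0.0522 for NEAT1, 0.0953 for NORAD, 0.094 for GAS5, 0.0481 for TUG1, 0.1975 for OIP5-AS1 and 0.2409 for KCNQ1OT1. With 3 libraries a group, differences inside the printed intervals could not be told from the spread between libraries.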
